A study of Rattus norvegicus with 5 samples.

Results

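The table of transcript levels in microglia held 35495 features, of which 2612 (7.36%) carried a running label such as Novel00282 in place of a rat Ensembl gene identifier. These features, called unannotated below, are described here, and the 32883 features with Ensembl identifiers, called annotated below, serve for comparison. Every row with such a label was taken as a member, with no use of its values. Numbers in the names ran from 1 to 2612 without a gap. The sources used here do not state how the unannotated features were defined, and no position, strand or sequence is given for them, so whether they were assembled from these reads and where they lie relative to known genes was not analysed here.

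Microglia, the resident immune cells of the brain, were isolated on Percoll gradients from Sprague Dawley rats, the offspring of dams injected during pregnancy with an adenovirus. The dams of the CYP11A1 group received virus carrying the CYP11A1 gene, which encodes the mitochondrial enzyme that turns cholesterol into pregnenolone, behind the CMV promoter. The dams of the control group received the control vehicle adenovirus, so that both groups share exposure to the virus. There were 2 control libraries (control 1 and control 3) and 3 CYP11A1 libraries (CYP11A1 1, 2 and 3). The labels give an age of 3 months and a kit for small RNA, whereas the study's text gives a younger age, male rats and a low-input kit with amplification of the cDNA. It is not stated whether the libraries of a group came from different dams, so p-values measure the spread between these samples. The labelled cell type was not checked against marker genes, because the RefSeq gene table used here lists no Ensembl identifiers, so that no symbol could be assigned.

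Features outside a reference annotation are found when reads map to regions for which no gene is recorded. Such regions can hold long noncoding RNAs, which do not encode proteins and are often specific to a cell type, as well as unrecorded ends of known genes, pieces of introns and copies of repeats. A count table alone cannot tell these kinds apart, and their roles in microglia are for the most part not known.

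The counted reads per library ranged from 9623896 to 13624545. Detection was set at 3 counts or more. Scaled to the library total, as CPM, this minimum lay between 0.220 and 0.312. FPKM, which scales the count to both the library total and the length of the feature, is the scale for levels unless CPM is named. Control 1 and CYP11A1 3 were the deepest libraries and detected the fewest unannotated features. Because the libraries are bulk samples, fewer cells of a type and less RNA per cell cannot be told apart.

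Unannotated features took between 3.48% and 6.03% of all counts. Control 1 held 473669 counts on unannotated features (3.48% of its total) and control 3 held 543352 (5.65%). CYP11A1 1 held 496116 (4.49%), CYP11A1 2 held 633450 (6.03%) and CYP11A1 3 held 708585 (5.35%). The 95% Wilson intervals of these shares, which cover counting error only, reached from 3.47% to 3.49% in control 1 and from 6.01% to 6.04% in CYP11A1 2. Control 1 was lowest and the groups overlapped. The mean share was 4.56% ± 1.53 (SD, n = 2) in controls and 5.29% ± 0.77 (SD, n = 3) in the CYP11A1 group, a difference of 0.73 percentage points that was not larger than the spread between libraries (two-sided exact permutation test over 10 splits, p = 0.6, with 0.1 as the lowest attainable value). Without control 1 the difference turned to -0.36 percentage points, and without control 3 it was 1.81.

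**Figure D1:**
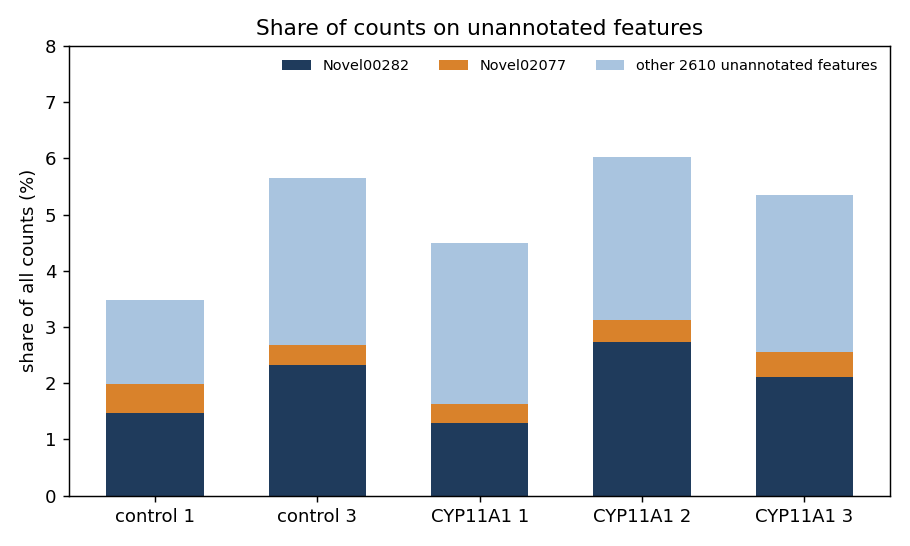
Share of all counts (%, vertical axis) that fell on unannotated features in each of the 5 libraries, split into Novel00282, Novel02077 and all other unannotated features. The bars reach 3.48% in control 1 and 4.49% to 6.03% elsewhere, and Novel00282 makes up the darkest part in every bar.

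Much of this share came from a single feature. Novel00282, 1535 bp long, had 201195 and 224209 counts in control 1 and control 3, and 142045, 288101 and 279621 counts in CYP11A1 1, 2 and 3. It held 28.6% to 45.5% of the unannotated counts of a library and 1.29% to 2.74% of all counts. Among all 35495 features it ranked between the 8th and 13th by count and between the 12th and 17th by FPKM. Its level was 12399 ± 3929 FPKM (SD, n = 2) in controls and 13333 ± 4754 FPKM (SD, n = 3) in the CYP11A1 group, with overlapping groups.

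Novel02077, 1357 bp long, came second among unannotated features in every library. It had 69559 and 33425 counts in control 1 and control 3, and 37194, 40827 and 58701 counts in CYP11A1 1, 2 and 3. Its FPKM lay between 2482 and 3762 and ranked between the 32nd and 37th of all features. The groups overlapped. The order of libraries depended on the scaling, with control 1 highest and CYP11A1 1 lowest by FPKM, and CYP11A1 1 highest and CYP11A1 2 lowest (5492 and 2881 CPM) once TMM factors, described with the group comparison, were applied.

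Below this pair, 3 further unannotated features exceeded a mean of 1000 FPKM, and all 3 were short. Novel00163 (546 bp) reached 610 and 1033 FPKM in control 1 and control 3, and 2134, 2157 and 601 FPKM in CYP11A1 1, 2 and 3. It was thus highest in CYP11A1 1 and 2 and lowest in CYP11A1 3, so that the 3 libraries of one group held both ends of its range. Novel02145 (329 bp) lay at 1048 and 1408 FPKM in controls and at 1343, 1334 and 1026 FPKM in the CYP11A1 libraries. Its counts ranged only from 4459 to 4880 across all 5 libraries, and its coefficient of variation (SD over mean) of CPM was 0.147, or 0.407 with TMM factors. Novel00371 (308 bp) lay at 1199 and 1129 FPKM in controls and at 1283, 763 and 711 FPKM in the CYP11A1 libraries, with overlapping groups.

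The other unannotated features among the 10 with the highest mean FPKM were Novel02219 (353 FPKM), Novel01038 (290 FPKM), Novel01496 (266 FPKM), Novel01013 (239 FPKM) and Novel02150 (231 FPKM). By mean CPM, which does not correct for length, longer features entered the first 10. These were Novel00755 (5566 bp, 523 CPM), Novel02250 (7986 bp, 480 CPM), Novel01216 (4927 bp, 415 CPM), Novel02052 (2052 bp, 404 CPM) and Novel01266 (10565 bp, 404 CPM). The 10 most counted unannotated features of a library together took 50.03% to 64.2% of its unannotated counts. The same measure over annotated features ranged from 39.4% to 68.5%, so a few features dominated both classes.

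Recovered lengths differed between the classes. The length of each feature with a count was obtained from its count, its FPKM and the library total, and it came out whole to within 0.0012 bp. The 2526 unannotated features with a length had a median of 1021 bp (interquartile range 686 to 1610 bp), against 1845 bp (985 to 2981 bp) for 18546 annotated features. Only 2 unannotated features were under 200 bp long, against 1021 annotated features (5.51%). At the other end, 47 unannotated features (1.86%) and 1293 annotated features (6.97%) exceeded 5000 bp. Among features that reached 10 counts throughout, the medians were 1666 and 1838 bp, whereas among features that passed edgeR's filter they were 1230 and 2076 bp. These are descriptions without a test, since features are not replicates.

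Length and level moved together within the unannotated class. The 263 unannotated features under 500 bp had a median of 31 counts over all libraries, and the 84 of at least 4000 bp had a median of 2249 counts. Median counts of annotated features rose with length as well, from 6 to 61 in the same length classes, and Spearman's rho between length and total counts was 0.543 over unannotated and 0.190 over annotated features. On the FPKM scale the medians of the unannotated features in these length classes were 1.34 and 7.74. In annotated features the corresponding FPKM medians ran the other way, from 0.584 under 500 bp to 0.203 at 4000 bp and above. Spearman's rho between length and mean FPKM was 0.224 over 2526 unannotated and -0.213 over 18546 annotated features, where all points come from the same 5 libraries and length enters both measures.

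The longest unannotated feature that reached 10 counts throughout was Novel00082 (11516 bp). It had 248 and 1205 counts in control 1 and control 3, and 848, 1495 and 1515 counts in CYP11A1 1, 2 and 3. Control 1 was far below the other libraries for this feature, at 1.58 FPKM against 6.67 to 12.4 FPKM. Next in length came Novel01266 (10565 bp, 2528 to 9056 counts per library) and Novel00318 (9341 bp, 604 to 1880 counts). The shortest were Novel00156 (190 bp, 15 to 42 counts per library), Novel00380 (251 bp, 49 to 165 counts) and Novel00867 (266 bp, 10 to 58 counts).

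**Figure D2:**
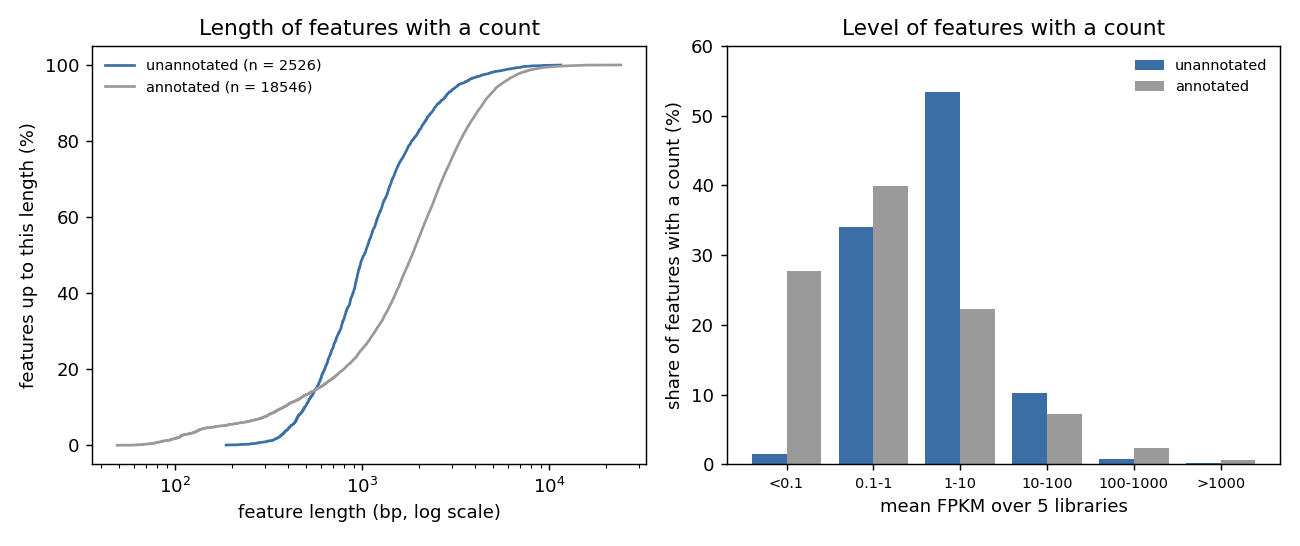
Left, cumulative share (%) of features up to a given length (bp, log axis) for unannotated and annotated features with a count. Right, share (%) of the same features by mean FPKM over 5 libraries. The unannotated curve crosses 50% at 1021 bp and the annotated curve at 1845 bp, and 53.3% of unannotated features lie between 1 and 10 FPKM.

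Among features with a count, levels of unannotated features were bunched in a narrower range than those of annotated features. Of the unannotated features with a count, 38 (1.504%) had a mean below 0.1 FPKM, 861 (34.1%) lay between 0.1 and 1, 1347 (53.3%) between 1 and 10, 257 (10.2%) between 10 and 100, 18 between 100 and 1000, and 5 above 1000 FPKM. Of the annotated features with a count, 27.7% were below 0.1 FPKM, 39.8% lay between 0.1 and 1, 22.3% lay between 1 and 10, 7.27% lay between 10 and 100, 2.33% lay between 100 and 1000, and 0.539% were above 1000 FPKM. The last 2 shares were 0.713% and 0.198% of unannotated features. Unannotated features thus had the smaller share below 1 and above 100 FPKM and the larger share between 1 and 100 FPKM. A single count was enough to enter, and 252 of 2526 unannotated and 7353 of 18546 annotated features had a mean under 0.3 CPM. A difference in level cannot be told apart from how the unannotated features came to be listed, which is not stated.

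Within each library, detected unannotated features had a higher median level than detected annotated features. The unannotated medians were 2.31 and 3.00 FPKM in control 1 and control 3, and 2.65, 2.77 and 3.56 FPKM in CYP11A1 1, 2 and 3. The annotated medians in the same order were 1.47, 1.22, 0.692, 1.30 and 2.25 FPKM. The mean difference of the medians on the log2 FPKM scale was 1.13, with unannotated higher in 5 of 5 libraries (two-sided exact sign-flip permutation test over libraries, p = 0.0625, the smallest that 32 sign patterns allow). Only features with at least 3 counts entered, a minimum that stands for a higher FPKM in a shorter feature. The test therefore cannot tell a difference in level apart from this choice of features. Among features with at least 10 counts the difference was 0.57, with unannotated features higher in 4 of 5 libraries (exact permutation p = 0.125). On the log2 CPM scale, which does not correct for length, it was 0.44.

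Detection showed a gap between the classes in each library. With a minimum of 3 counts, 1668 (63.9%) and 1808 (69.2%) unannotated features were detected in control 1 and control 3. In CYP11A1 1, 2 and 3 the numbers were 1711 (65.5%), 1960 (75.04%) and 1412 (54.1%). The annotated shares in the same order were 26.9%, 33.0%, 32.4%, 37.7% and 24.2%. The classes differed by 34.7 percentage points on average. This gap includes features with no count in any library, which were 14337 of the 32883 annotated and 86 of the 2612 unannotated features, so it is a description without a test. Among features of at least 200 bp with a count in at least 1 library the difference was 11.3 percentage points, also without a test, since these features were chosen by having a count.

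**Figure D3:**
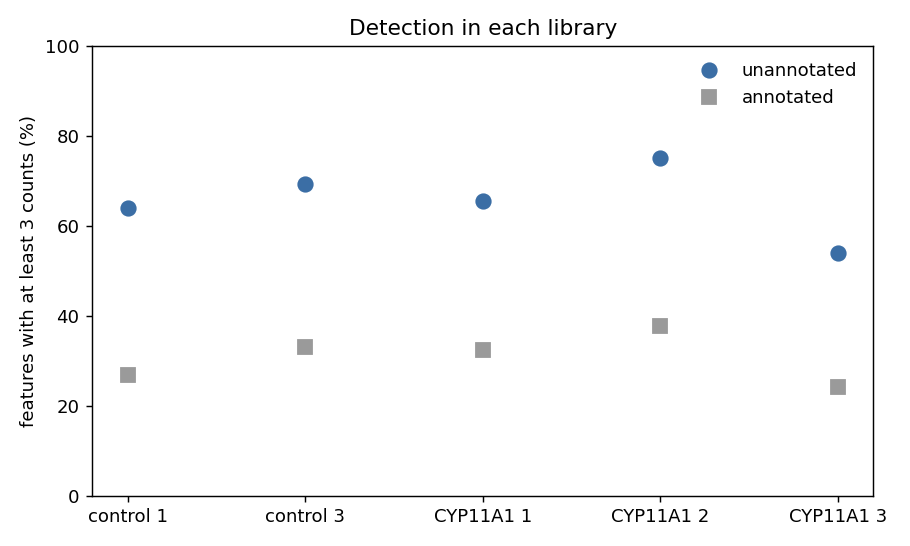
Share (%) of unannotated (circles) and annotated features (squares) with at least 3 counts in each library. Unannotated features lie between 54.1% and 75.04% and annotated features between 24.2% and 37.7%, and both are lowest in CYP11A1 3 and highest in CYP11A1 2.

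Detection of unannotated features did not separate the groups. The mean was 66.5% ± 3.79 (SD, n = 2) in controls and 64.9% ± 10.5 (SD, n = 3) in the CYP11A1 group, whose libraries held both the highest and the lowest share. The difference of -1.67 percentage points was within the spread between libraries (two-sided exact permutation test, p = 0.8). It turned to 1.01 percentage points without control 3 and to 3.73 without CYP11A1 3. At the depth of the shallowest library, the expected shares were 62.2% and 69.2% in control 1 and control 3, and 64.3%, 74.5% and 53.1% in CYP11A1 1, 2 and 3.

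Long unannotated features were found in nearly every library. Of those of at least 4000 bp, 86.9% were detected in control 1, 95.2% in control 3, 92.9% each in CYP11A1 1 and 2, and 97.6% in CYP11A1 3. Of those between 500 and 1000 bp, the shares were 58.2%, 62.8%, 58.3%, 70.8% and 42.2% in the same order. CYP11A1 3 was the lowest library for unannotated features in every length class under 2000 bp and the highest from 4000 bp. Annotated features of at least 4000 bp did not show this, with 49.4%, 71.7%, 69.2%, 80.9% and 45.1%.

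Unannotated features ranged from those present in every library to those seen in one. Of the 2506 unannotated features detected somewhere, 965 (38.5%) were detected in all 5 libraries, 383 in 4, 318 in 3, 408 in 2 and 432 (17.2%) in 1. Of the annotated features detected somewhere, 35.4% were detected in all 5 libraries and 21.9% in 1. With a minimum of 10 counts the order turned, with 30.5% of unannotated and 35.5% of annotated features present in all 5 libraries. In the 4 classes of abundance between 0.3 and 100 CPM, a smaller share of unannotated than of annotated features was detected in all 5 libraries, while below and above this range the shares were equal. Between 1 and 3 CPM, for example, 28.0% of 608 unannotated and 38.2% of 2878 annotated features were detected in all 5, and between 3 and 10 CPM the shares were 75.1% of 514 and 78.9% of 2290.

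The steadiest unannotated features depended on the scaling. Among the 748 that reached 10 counts throughout, the lowest coefficient of variation of CPM, scaled by library size alone, belonged to Novel01214 (430 bp). It had 98 and 79 counts in control 1 and control 3, and 78, 81 and 99 counts in CYP11A1 1, 2 and 3, which gives 16.4 to 19.1 FPKM and a coefficient of 0.060. Novel02577 (908 bp, 55.3 to 76.0 FPKM), Novel00904 (440 bp, 44.5 to 61.6 FPKM), Novel00431 (2598 bp, 13.3 to 19.0 FPKM) and Novel01727 (388 bp, 24.9 to 36.6 FPKM) followed, with coefficients of 0.112 to 0.144. With TMM factors, which were used for the group comparison, the coefficient of Novel01214 was 0.290 and CYP11A1 1 was its highest library. Those of Novel02577, Novel00904, Novel00431 and Novel01727 were 0.213, 0.195, 0.212 and 0.456. The median coefficient was 0.579 over the 748 unannotated and 0.596 over 4029 annotated features by library size, and the order turned with TMM factors, to 0.635 and 0.553. A coefficient under 0.25 was found for 23 unannotated (3.07%) and 267 annotated features (6.63%) by library size, and for 26 (3.48%) and 261 (6.48%) with TMM factors.

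Other unannotated features were nearly confined to one library. Of the 1965 with at least 30 counts in total, 152 (7.74%) had over 90% of their counts in a single library, against 151 of 9481 annotated features (1.59%). CYP11A1 2 held 65 of the 152 and control 1 held 52, while CYP11A1 3 held 17, control 3 held 11 and CYP11A1 1 held 7. Control 1 and CYP11A1 2 thus held most of them. These libraries also led among the 151 annotated features, where control 1 held 57, CYP11A1 2 held 42 and CYP11A1 3 held 40. With a total of at least 100 counts the shares were 2.12% of unannotated and 0.594% of annotated features. Without control 3 they were 13.2% and 5.74%.

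The most counted example in each library was as follows. Novel01515 (603 bp) had 1301 counts in control 1 and 13 in control 3, and 1, 12 and 4 counts in CYP11A1 1, 2 and 3. Novel01691 (2790 bp) had 746 counts in CYP11A1 2, 46 in control 3, 2 in CYP11A1 1 and 0 in both control 1 and CYP11A1 3. Novel00574 (1301 bp) had 336 counts in CYP11A1 1 and 20 in control 1, with 0, 1 and 3 counts in control 3, CYP11A1 2 and CYP11A1 3. Each was thus abundant in a single library and nearly absent from others of the same group. Novel00075 (1748 bp) had 141 counts in CYP11A1 3, 9 in CYP11A1 2, 6 in CYP11A1 1 and 0 in both controls. Novel01085 (545 bp) had 60 counts in control 3 and 0 in the other 4 libraries.

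**Figure D4:**
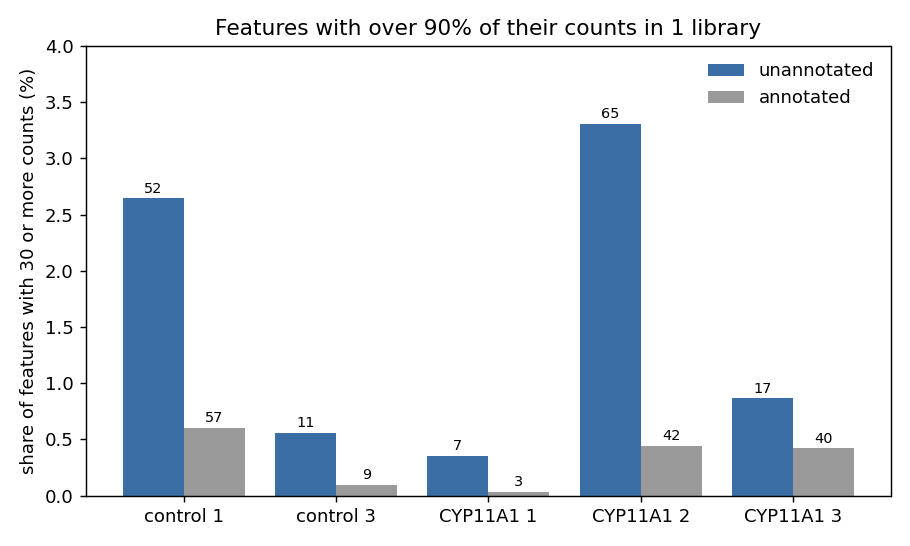
Share (%) of features with at least 30 counts that had over 90% of them in the library named on the horizontal axis, for unannotated and annotated features, with the number of features above each bar. Control 1 (52 unannotated features) and CYP11A1 2 (65 unannotated features) stand above the other libraries.

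Libraries resembled each other less over unannotated than over annotated features in 9 of 10 pairs. Spearman's rho of CPM over 1673 unannotated features with at least 10 counts in 2 libraries was 0.562 between control 1 and control 3, and from 0.583 to 0.670 within the CYP11A1 group. Between groups it ranged from 0.498 (control 1 with CYP11A1 2) to 0.758 (control 3 with CYP11A1 2). All 4 pairs that include control 1 were at or below 0.562, and the other 6 lay between 0.583 and 0.758. Control 1 thus gave the lowest values over unannotated features, also with the other control. The step to the next pair, from 0.562 to 0.583 (CYP11A1 1 with CYP11A1 2), was small and was not tested. The exception among the 10 pairs was control 3 with CYP11A1 3, with 0.681 over unannotated and 0.646 over annotated features. Points of these correlations share libraries, depth and the amplification step.

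The comparison of the CYP11A1 group with controls was fitted on all features that passed edgeR's filter on low counts, of which 1664 were unannotated (63.7% of the class) and 8682 annotated (26.4%). The remaining 948 unannotated features were not tested. With Benjamini-Hochberg adjustment, edgeR's quasi-likelihood test gave 0 unannotated features with an adjusted p under 0.05, and over all 10346 features tested the share was also 0%. At an unadjusted p under 0.05 there were 97 unannotated features (5.83% of those tested), against 4.26% of all features tested. Of these, 41 were higher in the CYP11A1 group (2.46%, against 1.46% of all features) and 56 were lower (3.37%, against 2.8%). Limma on log2 FPKM gave 0 unannotated features with an adjusted p under 0.05, and DESeq2 gave 2 (Novel02149 and Novel01515, both lower), where it called 0.106% of all features tested. Without the filter on low counts, edgeR called the same 2, where it called 0.0475% of all features with a count. Without control 3 the number at the unadjusted threshold was 232 of 2167 tested (10.7%), against 5.95% of all features tested. The balance of directions changed with the fit, with 62 higher and 29 lower by DESeq2 (191 and 199 over all features tested), 67 and 25 without CYP11A1 3 (169 and 197), and 4 and 77 without control 1 (25 and 197).

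The median log2 fold change (CYP11A1 against control) was 0.40 over the unannotated features tested and 0.15 over all features tested. The fold change was above 0 in 63.2% of unannotated and 56.5% of all features tested. Without CYP11A1 1 the unannotated median was -0.01, against 0.04 over all features, so a positive median was not seen without that library. The SD of the unannotated median over pairs of a CYP11A1 and a control library was 0.64. Without control 3 the medians were 1.32 and 0.69. With library size alone as the scaling they were 0.34 and 0.18, and without the filter on low counts the order turned, with 0.38 and 0.42. Groups did not overlap in 128 unannotated features that were higher (7.69%, against 6.49% of all features) and in 143 that were lower (8.59%, against 7.91%).

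The 5 unannotated features with the smallest p among those lower in the CYP11A1 group were low in counts in all 3 CYP11A1 libraries. Novel02149 (2224 bp) had 573 and 616 counts in control 1 and control 3, or 18.9 and 28.8 FPKM, and 0 counts in each CYP11A1 library. It was at least 184-fold lower with a floor of 3 counts per library, and at least 154-fold lower without control 3. Its adjusted p-values were 0.283 (edgeR, quasi-likelihood) and 3.7e-11 (DESeq2). Novel01280 (1068 bp) had 70 and 32 counts in controls and 1, 1 and 0 counts in CYP11A1 1, 2 and 3, a ratio of 0.0126 (95% counting interval 0.00150 to 0.0466). The unadjusted p of Novel01280 was 0.0044 (edgeR, quasi-likelihood), and its adjusted p-values were 0.9998 (edgeR, quasi-likelihood) and 0.218 (DESeq2). Its ratio was 0.0218 without CYP11A1 3 and 0.00772 without CYP11A1 1. For Novel02149 and Novel01280, both controls were well above all CYP11A1 libraries. Both features passed the filter on low counts through the controls alone, so their p-values from filtered fits are no independent support. The same holds for the features below that had no count in the controls or in the CYP11A1 group, which passed through the other group. Novel01511 and Novel02449 also passed through the controls alone, and Novel00399 through the CYP11A1 group alone. Novel01515 and Novel02507 would not have passed on the group where they were low.

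The other 3 were uneven between the controls. Novel01515, described above, had nearly all its counts in control 1, with a log2 fold change of -6.75 ± 1.41 (SE) and adjusted p-values of 0.9998 (edgeR, quasi-likelihood) and 0.00274 (DESeq2). Without control 1 its log2 fold change was -1.48. Novel01511 (621 bp) had 169 and 13 counts in controls and 0, 2 and 0 counts in CYP11A1 1, 2 and 3, a ratio of 0.00704 (95% counting interval 0.000847 to 0.0258). Without control 1 this ratio was 0.0431, without control 3 it was 0.00427, and without CYP11A1 3 it was 0.0122, while without CYP11A1 2 no count was left in the CYP11A1 group. Novel02449 (1432 bp) had 99 and 30 counts in controls and 0, 6 and 0 counts in the CYP11A1 libraries.

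Of the 5 with the smallest p among those higher in the CYP11A1 group, each had an adjusted p of 0.9998 (edgeR, quasi-likelihood). Novel02324 (936 bp) was the most abundant, with 25 and 63 counts in control 1 and control 3, and 535, 182 and 243 counts in CYP11A1 1, 2 and 3. Its log2 fold change was 3.15 ± 1.13 (SE), with an unadjusted p of 0.0161 (edgeR, quasi-likelihood), and ranged from 1.86 without CYP11A1 1 to 4.15 without control 3. Novel02507 (2554 bp) had 23 and 2 counts in controls and 141, 56 and 146 counts in the CYP11A1 libraries, with a log2 fold change of 3.43 ± 1.26 (SE) that ranged from 2.60 without control 3 to 5.75 without control 1. In both, every CYP11A1 library was above both controls, but both features were picked by their p, so this is no independent support. Novel00399 (938 bp) had 2 and 0 counts in controls and 137, 34 and 4 counts in the CYP11A1 libraries, so that CYP11A1 3 lay close to the controls.

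Novel00142 (1374 bp) and Novel00718 (652 bp) completed this list and had no count in either control. Novel00142 had 24, 34 and 26 counts in CYP11A1 1, 2 and 3 and was at least 9.73-fold higher. Novel00718 had 9, 15 and 110 counts in the same libraries and was at least 12.1-fold higher, with most of its counts in CYP11A1 3, without which the bound was 4.57-fold.

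Presence in one group and absence from the other was rare. With at least 10 counts in every library of one group and 0 in every library of the other, 4 unannotated features were found in controls alone and 4 in the CYP11A1 group alone. Over all features tested, 0.116% met the rule in the first direction and 0.145% in the second (12 and 15 features). Beside Novel02149, the features found in controls were Novel02008 (804 bp, 35 and 22 counts), Novel01136 (1360 bp, 28 and 11 counts) and Novel02190 (814 bp, 13 and 12 counts). They were at least 8.52-fold, 5.67-fold and 3.83-fold lower in the CYP11A1 group. With a library left out the lowest bounds were 7.36-fold, 3.82-fold and 3.31-fold in the same order. Beside Novel00142, the features found in the CYP11A1 group were Novel00175 (533 bp, 10, 28 and 28 counts in CYP11A1 1, 2 and 3), Novel00744 (671 bp, 27, 12 and 19 counts) and Novel01537 (816 bp, 22, 10 and 13 counts). They were at least 6.71-fold, 7.73-fold and 6.12-fold higher, and the bounds of Novel00744 and Novel01537 were 3.97-fold and 2.96-fold without CYP11A1 1.

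**Figure D5:**
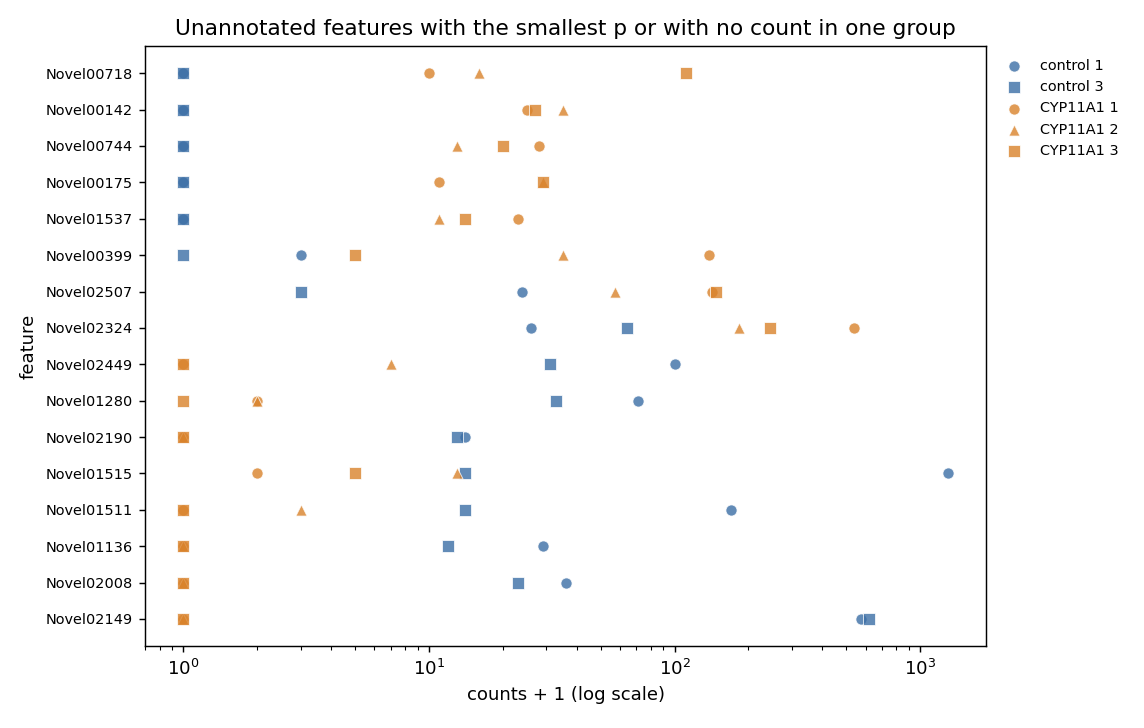
Counts plus 1 (log axis) of the unannotated features with the smallest p in each direction and of those with no count in one group, by library (blue, controls, and orange, CYP11A1, with a marker shape for each replicate number). Novel02149 lies at 573 and 616 counts in the controls and at 0 in all CYP11A1 libraries, while most others lie below 150 counts.

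The spread between libraries of a group was wide in both classes. The median SD of log2 CPM within groups was 1.37 over the unannotated and 1.21 over the annotated features tested. The difference held at each level of abundance, for example with 1.08 against 0.93 between 2 and 4 log2 CPM and 0.91 against 0.73 above 6 log2 CPM. It vanished with library size alone as the scaling, where the medians were both 1.31, and without CYP11A1 1, where they were 1.20 and 1.19, and widened without CYP11A1 3, where they were 1.33 and 0.989. CYP11A1 1 had the lowest TMM factor, 0.615, against 0.967 to 1.35 in the other libraries. Its part in the difference was not tested.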

How the data were processed

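RNA of microglia from offspring of treated dams was sequenced in 2 control and 3 CYP11A1 libraries. Groups were taken from the labels, and columns were matched by sample title. The authors deposited raw read counts per feature and FPKM, both per the file headers for the same 35495 features. The submitters' processing notes name HISAT2 2.0.4 and HTSeq 0.9.1, and the genome build, annotation and origin of the unannotated features are not given in the sources used here. Deposited FPKM equal counts divided by library total and a whole-number length, which was recovered. No molecular identifiers are named, and amplification can widen the spread beyond counting error.

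Counts were compared with edgeR 4.0.16 (filterByExpr with a minimum count of 10, TMM, quasi-likelihood test, Benjamini-Hochberg adjustment over all features tested), with limma 3.58.1 on log2(FPKM + 1) and DESeq2 1.42.0 as alternatives, in R 4.3.3 and Python 3.11.15. The fit was tested on simulated data, where it recovered known changes at a low dispersion and none at a dispersion near that of these data. SE of a fold change was taken from the F statistic. Values per library were compared by exact permutation tests in 4 comparisons and under their alternatives, and detection between classes is given without its test. TMM-scaled coefficients of variation, fold bounds, count ratios and mean FPKM with each library left out, the alternatives for the median log2 fold change and a crossed pairing were added after seeing the data. Features with all counts at 0 in a group were compared with a floor of 3 counts per library. Members, lists and tests were chosen with earlier results of these data known. Features in the report were named by fixed rules (10 highest by FPKM or CPM, 5 smallest p in each direction, group-exclusive, 5 steadiest, 3 longest and 3 shortest, and the most counted single-library feature of each library), and those among the closing observations were chosen after their values were seen. Marker genes were not analysed because no symbols could be assigned. Alternatives were other scalings, filters and minimum counts, a replicate block, and leaving out each library.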

Additional observations from a re-analysis of the deposited data

How the results depend on the processing

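By edgeR, 0 unannotated features passed the adjusted threshold of 0.05 and 97 passed it unadjusted. The adjusted count was 2 with DESeq2 and 2 without a filter on low counts, and 0 in the other 13 fits. With control 1 or control 3 left out, the lone control is assumed to vary like the other libraries. At the unadjusted threshold the count was 270 of 2526 without the filter (10.7%, against 3.62% of all features), 34 of 748 where each library held at least 10 (4.55%, against 3.43%) and 81 to 232 with a library left out, from 3.86% (against 1.77%) without control 1 to 10.7% (against 5.95%) without control 3. A replicate block on the libraries numbered 1 and 3 gave 18 (1.22%, against 1.14%), and 0 passed the adjustment. Deviations of same-numbered libraries had a correlation of -0.215 over all features tested and 0.060 over unannotated features. Each group gave a single contrast between its libraries and features are not replicates, so whether the numbers mark pairs stays unsettled. A crossed pairing, chosen after seeing the data, gave 0 and 82 (5.57%, against 4.002%).

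With a library left out, the group difference in the share of counts ranged from -0.355 to 1.81 percentage points and that in detection from -6.76 to 3.73. The unannotated median log2 fold change ranged from -0.0101 to 1.32, with -0.0101 without CYP11A1 1. The length gap between unannotated and annotated medians, -824 bp, was -941.5 bp with at least 3 counts in 1 library and -172 bp where each library held at least 10. The gap in features found in all 5 libraries, 3.11 percentage points, was 7.47 at 1 count, -5.01 at 10 counts, 20.2 over all listed features and 0.826 to 5.17 with a library left out, lowest without CYP11A1 1 and highest without control 1. The gap in single-library features, 6.14 points, was 12.2 at a total of 10 counts, 1.53 at 100 counts and 5.17 to 8.16 with a library left out. The gap in within-group SD, 0.16, was -0.00200 with library size alone and 0.0133 to 0.338 with a library left out. The cause of these shifts was not tested, beyond fewer or more features entering. For the 16 features of the group comparison, whose direction the choice of features fixes, 211 fold changes were refitted. Of these, 203 kept their side of the threshold, 4 had no adjusted p (DESeq2) and 4 adjusted p-values fell under 0.05 (Novel02149 and Novel01515, with DESeq2 or without the filter). The class differences in the share detected per library and in median log2 FPKM kept their direction under every alternative run for them. The coefficient of variation shared by all features, 1.05, limits what could be detected.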

Other observations

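Consecutive numbers in the names of unannotated features were compared, a step chosen after seeing the data. Among features that reached 10 counts throughout, the profiles of 243 pairs with consecutive numbers lay at a median distance of 0.863 (root mean square over 5 libraries of the difference in centred log2 CPM). At number distances of 2 to 500 the medians lay between 0.947 and 1.04. Outside this set, Novel01690 (2724 bp) and Novel01691 (2790 bp) had 429 and 746 counts in CYP11A1 2, 11 and 46 in control 3, and at most 2 in the other libraries. Novel00734 (2748 bp) and Novel00735 (3210 bp) had 226 and 196 counts in CYP11A1 2, 21 and 7 in control 3, and 0 in the other libraries. Whether numbers follow genome position is not stated, and the difference in distance was not tested.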
